A study of Mus musculus with 8 samples.

Results

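A set of 10 genes of lipoprotein handling and cholesterol efflux was examined in mouse cells isolated as microvascular endothelial cells. These cells came from mice with or without deletion of the receptor LRP1. LRP1 is an endocytic receptor that takes up many ligands. The genes were taken by symbol from the 22520 genes of the RNA sequencing table, in which all 10 of 10 were found. The 4 LRP1 KO libraries came from mice carrying LRP1 f/f and Cdh5-CreER+/-, in which an inducible Cre recombinase (CreER) is driven by the promoter of Cdh5, the gene of endothelial VE-cadherin. The 4 wild-type (WT) libraries came from littermates carrying LRP1 f/f without the recombinase, so the floxed allele was shared by both groups and CreER was present only in LRP1 KO. When Cre was induced is not given in the sources used here. Mice were C57BL/6 at postnatal day 14, and the labels describe each library as a mix of cells from 3 organs, the heart, the liver and the lung. The study instead describes liver cells kept separate from those of heart and lung, so which organs each value stands for is uncertain. The methods describe selection of such cells with PECAM-1 beads. Values were taken as FPKM, that is, fragments divided by transcript length and by the total of the library. Their distribution was nearly equal in all libraries, as after quantile normalization, so the sequencing depth behind them is unknown. Whether each library came from a separate animal is not stated, and p-values measure only the spread between these libraries, which may be technical.

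Cells take up cholesterol in lipoproteins through lipoprotein receptors, LRP1 among them, and break cholesteryl esters down in the lysosome. The freed cholesterol is passed by NPC2 to NPC1 and leaves the lysosome, and an excess is turned into oxysterols that activate the liver X receptors. These nuclear receptors in turn raise the transporters that load cholesterol onto high-density lipoprotein. In capillaries, lipoprotein lipase made by neighbouring cells is carried to the endothelial surface, where it hydrolyses the triglycerides of passing particles. Apolipoprotein E and lipoprotein lipase are both known ligands of LRP1.

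Of the 10 genes, Mylip and Lpl fell in LRP1 KO. The other 8 did not pass the test, which asked for a p-value below 0.05 from limma after adjustment over all 11389 genes tested. The share of all tested genes that passed was 13.6%, and 7.31% passed as lower and 6.27% as higher, so 2 of 10 is a count near the background. None of the 10 passed with an added limit of at least 1 on the absolute log2 fold change, which 1.62% of all genes passed. At an unadjusted p-value under 0.05 there were 4 of them, namely Lpl, Mylip, Nr1h3 and Lipa, beside 33.7% of all tested genes. The estimates were below 0 in 7, above 0 in 2 and at 0.00 in 1. Their median was -0.10 on the log2(FPKM + 1) scale, beside -0.01 over all genes tested.

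The targeted gene matched the labels in every library. Lrp1 ranged from 103 to 140.4 FPKM across WT, against 2.79 to 7.72 FPKM across LRP1 KO, with the highest remaining value in LRP1 KO library 4. Endothelial markers were low beside those of fibroblasts. A list of 20 endothelial markers summed to 193 to 206 FPKM in WT, whereas 13 fibroblast markers summed to 2631 to 3853 FPKM. Cdh5 was at 8.87 to 11.2 FPKM and Pecam1 at 6.80 to 8.76 FPKM in WT, beside 395 to 565 FPKM for Col1a1, which encodes a chain of type I collagen. In such bulk samples, fewer cells of a type and less RNA per cell cannot be told apart.

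The levels of the 10 genes spanned a wide range, which can be compared because FPKM is given per length. In WT, Apoe was highest at 458 to 718 FPKM, followed by Npc2 at 244 to 295 FPKM and Lpl at 167 to 239 FPKM. A middle group held Lipa at 30.2 to 39.1, Pltp at 26 to 38, Abca1 at 18 to 26.5 and Npc1 at 12.7 to 16.9 FPKM. Mylip at 10.2 to 12.1, Nr1h3 at 8.56 to 10.5 and Abcg1 at 1.58 to 3.02 FPKM were lowest. The WT ranges of Lipa and Pltp, of Pltp and Abca1, and of Mylip and Nr1h3 overlapped. Within single WT libraries, however, Pltp was above Abca1 in 4 of 4, Mylip above Nr1h3 in 4 of 4 and Lipa above Pltp in 3 of 4. In LRP1 KO, Apoe remained above Npc2 in 3 of the 4 libraries, in place of 4 of 4 in WT. Pltp was above Abca1 in 3 of the 4 LRP1 KO libraries, Mylip above Nr1h3 in 2 and Lipa above Pltp in 4.

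**Figure D1:**
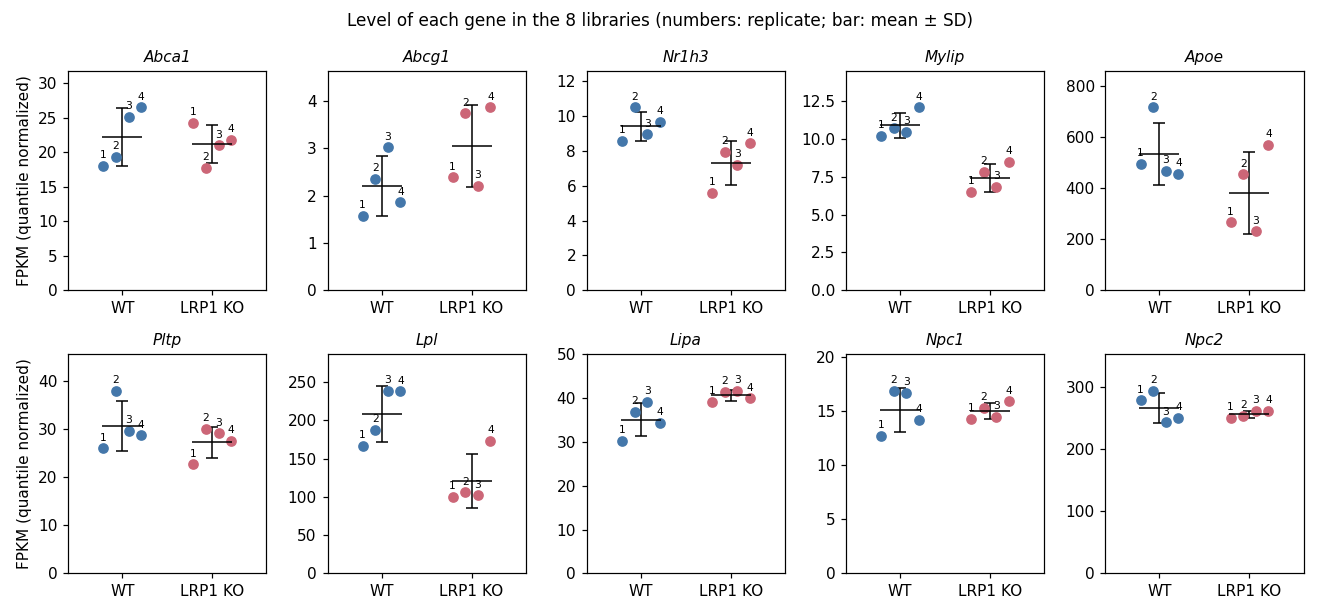
Level of each of the 10 genes in FPKM (vertical axes, each starting at 0) in the 4 WT libraries (blue) and the 4 LRP1 KO libraries (red), with the replicate number over each point and the mean ± SD as bars. Mylip and Nr1h3 are lower and Lipa is higher in all 4 LRP1 KO libraries than in any WT library, while Lpl in LRP1 KO library 4 lies at 173 FPKM, inside the WT range.

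Of the regulators that respond to oxysterols, Mylip fell and Nr1h3 did not pass the test. Mylip (chromosome 13, 45389742 to 45412022, plus strand in GRCm38) encodes the ubiquitin ligase also called IDOL, which marks lipoprotein receptors for degradation and is itself a target of the liver X receptors. It was at 10.2, 10.7, 10.5 and 12.1 FPKM across WT (libraries 1 to 4 in this order, as in all such series), against 6.49, 7.84, 6.84 and 8.48 FPKM across LRP1 KO. Every LRP1 KO library was thus below every WT library, a separation seen downwards in 10.7% of all tested genes and in either direction in 19.6%. Of the 10, 3 were separated in this way, Mylip and Nr1h3 downwards and Lipa upwards. The mean fell from 10.9 ± 0.839 to 7.41 ± 0.912 FPKM (SD, n = 4), to 68.1% of WT. On the log2(FPKM + 1) scale Mylip fell by 0.50 (SE 0.09, limma adjusted p 0.0109), and a permutation of the libraries (exact, two-sided) gave p = 0.0286, the lowest this design can reach. The call held in all 8 fits that left out 1 library, with estimates of -0.56 to -0.45. It was lost only with a covariate for the level of macrophage markers (estimate -0.87, adjusted p 0.142) or of endothelial markers (estimate -0.31, adjusted p 0.223), and its adjusted p-values ran from 0.0028 to 0.223 over the 16 settings tried.

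Nr1h3 (chromosome 2, 91184061 to 91202834, minus strand) encodes liver X receptor alpha, the form that is prominent in liver and macrophages. Its values were 8.56, 10.5, 8.96 and 9.65 FPKM across WT, against 5.6, 7.95, 7.21 and 8.43 FPKM across LRP1 KO. The groups did not overlap, but the lowest WT value and the highest LRP1 KO value were close. The difference of -0.34 (SE 0.11, 95% interval -0.59 to -0.08) did not pass (limma adjusted p 0.0773; two-sided exact permutation p = 0.0286). It passed without LRP1 KO library 4, at -0.40 (limma adjusted p 0.0328, and 0.0328 to 0.842 over the 16 settings tried). Nr1h2, which encodes the widely expressed liver X receptor beta, was higher than Nr1h3 in level, at 35.7 ± 2.39 FPKM for WT, against 31.6 ± 2.12 FPKM for LRP1 KO (SD, n = 4; limma adjusted p 0.115).

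Both transporters of cholesterol efflux showed no difference that passed the test. Abca1 (chromosome 4, 53030787 to 53159895, minus strand) encodes the transporter that lipidates apolipoprotein A-I. It was at 18, 19.3, 25.1 and 26.5 FPKM across WT, against 24.3, 17.7, 21 and 21.8 FPKM across LRP1 KO. The groups overlapped over most of their range, and the difference was -0.06 (95% interval -0.36 to 0.25, limma adjusted p 0.800). Abcg1 (chromosome 17, 31057675 to 31117988, plus strand) encodes a transporter that passes cholesterol on to high-density lipoprotein particles. Its values were 1.58, 2.36, 3.02 and 1.86 FPKM across WT, against 2.39, 3.74, 2.21 and 3.87 FPKM across LRP1 KO. LRP1 KO libraries 2 and 4 were above WT, while libraries 1 and 3 were within it, and the difference of 0.33 (95% interval -0.07 to 0.74) did not pass (limma adjusted p 0.221).

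Mylip and Abca1 are both known targets of the liver X receptors, and of them only Mylip passed the test. Whether their changes differ from each other was not tested. The 250 bases before their start sites are shown, from RefSeq on GRCm38.p6, 5′ to 3′ on the strand of the gene. The Mylip sequence lies on the plus strand at chr13:45389492-45389741 and the Abca1 sequence on the minus strand at chr4:53159896-53160145. Capitals mark the GC box (GGGCGG), the E-box (CACGTG) and the TATA box (TATAAA) on either strand.
Mylip: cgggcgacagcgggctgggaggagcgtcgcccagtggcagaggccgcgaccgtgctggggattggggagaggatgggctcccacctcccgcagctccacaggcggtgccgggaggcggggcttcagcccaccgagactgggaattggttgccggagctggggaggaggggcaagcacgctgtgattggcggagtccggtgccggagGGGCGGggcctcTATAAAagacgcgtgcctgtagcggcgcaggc
Abca1: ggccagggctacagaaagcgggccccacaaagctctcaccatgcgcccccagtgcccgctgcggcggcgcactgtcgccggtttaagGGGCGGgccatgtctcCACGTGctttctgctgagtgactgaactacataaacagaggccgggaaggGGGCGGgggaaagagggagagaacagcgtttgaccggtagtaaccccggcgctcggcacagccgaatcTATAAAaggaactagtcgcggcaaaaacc
Both hold a TATA box, whose first base lies 32 bases upstream of the start site in Mylip and 29 in Abca1, and a GC box, 44 bases upstream in Mylip and 163 and 97 bases upstream in Abca1. Abca1 also holds an E-box 147 bases upstream. Of 32851 mouse promoter windows from 250 bases before to 50 after a start site, 13.6% hold the TATA letters, 35.7% the GC box and 7.15% the E-box. The core motif bound by nuclear receptors (AGGTCA) was in 16.3% of all windows, and a direct repeat of it with 4 bases between, the arrangement known for liver X receptors, in 0.0152%. The table held 10 windows for 7 of the 10 genes, and 0 of the 10 windows held the core motif or the repeat. The sterol regulatory element (TCACNCCAC, 1.24% of all windows) was in 0 of the 10 as well. These matches describe letters and no binding, and the lack of a match says only that these letters are not in these windows. Only exact letters were searched, so a working element that differs from them was not counted, in Abca1 or elsewhere.

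Lpl showed the largest estimate of the 10. Lpl (chromosome 8, 68880491 to 68907448, plus strand) encodes lipoprotein lipase. It was at 167, 188, 239 and 238 FPKM across WT, against 100, 106, 102 and 173 FPKM across LRP1 KO. LRP1 KO libraries 1, 2 and 3 were well below WT and close to each other, and library 4 lay above the lowest WT library. The mean fell from 208 ± 36.5 to 120.4 ± 35.3 FPKM (SD, n = 4), to 57.8% of WT, and by 0.81 on the log2(FPKM + 1) scale (SE 0.19, 95% interval -1.23 to -0.39, limma adjusted p 0.0261). The permutation test, two-sided and exact, gave p = 0.0571. Leaving out 1 library ended the call in 6 of 8 cases (WT library 2, 3 or 4 or LRP1 KO library 1, 2 or 3), at adjusted p-values of 0.0584 to 0.0770, although the estimates stayed between -0.85 and -0.73. Without LRP1 KO library 4 the estimate was -0.99 (adjusted p 0.00122). The threshold was also lost without a filter on low values (adjusted p 0.0569) and with the macrophage (estimate -1.57, adjusted p 0.153) and endothelial covariates (estimate -0.37, adjusted p 0.493).

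The tested genes whose values over the 8 libraries were most like those of Lpl, by the distance between log2(FPKM + 1) values centred on the WT mean, were Adamts9, Ltbp2 and Gcnt1, at distances of 0.36, 0.43 and 0.44. In Adamts9, which encodes a secreted metalloprotease, the values were 22.8, 25.3, 26.9 and 25.8 FPKM across WT, against 11.9, 14.2, 11.6 and 22.0 FPKM across LRP1 KO, again with library 4 next to WT. The same holds for Ltbp2, which encodes a matrix protein of microfibrils, with library 4 of LRP1 KO at 23.4 FPKM, the rest of that group at 14.1 to 15.8 FPKM and WT at 24.2 to 30.7 FPKM.

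Of 12 further tested genes of lipolysis at the capillary wall, 2 rose and 1 fell, beside 6.27% and 7.31% of all tested genes. Cd36, which encodes a fatty acid transporter, rose from 1.29 ± 0.355 to 9.34 ± 2.34 FPKM (SD, n = 4), by 2.17 in log2(FPKM + 1) (SE 0.17, limma adjusted p 0.000389). Pcsk5, which encodes a proprotein convertase, rose by 0.92 (SE 0.26, limma adjusted p 0.0468), with LRP1 KO library 4 at 2.19 FPKM, inside the WT range of 1.84 to 2.31. Pcsk6, a related convertase, fell by 0.28 (SE 0.08, limma adjusted p 0.0430). Gpihbp1, whose product holds lipoprotein lipase on the luminal face of capillaries, was at 1.08, 1.31, 2.46 and 1.55 FPKM across WT, against 2.48, 1.30, 1.38 and 0.802 FPKM across LRP1 KO. These values overlapped (difference -0.07, 95% interval -0.55 to 0.41, limma adjusted p 0.833) and were low beside those of Lpl. Angptl4, whose product inhibits the lipase, was at 11.6 ± 2.38 and 10.8 ± 1.88 FPKM (SD, n = 4; limma adjusted p 0.738). Fabp4, a fatty acid binding protein of capillary endothelium and adipocytes, was the most abundant gene of this list that did not pass, at 382 ± 25.7 and 370.1 ± 38.8 FPKM (SD, n = 4; limma adjusted p 0.723). With Lpl this list held 4 calls, and 2 without WT library 1 or LRP1 KO library 3 and 1 without WT library 2, 3 or 4 or LRP1 KO library 1 or 2. It held 1 call without the filter on low values and 2 without the trend.

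Apoe (chromosome 7, 19696109 to 19699188, minus strand), the apolipoprotein that targets remnant particles to receptors, had the widest interval of the 10. It was at 496, 718, 469 and 458 FPKM across WT, against 266, 455, 231 and 572 FPKM across LRP1 KO. LRP1 KO libraries 1 and 3 were far below all WT libraries, and library 4 was above 3 of the 4 WT libraries. The mean was 535 ± 123 FPKM for WT, against 381 ± 161 FPKM for LRP1 KO (SD, n = 4), and the difference of -0.56 (95% interval -1.19 to 0.07) did not pass (limma adjusted p 0.187; two-sided exact permutation p = 0.200). It passed without LRP1 KO library 4, at -0.79 (limma adjusted p 0.0394, and 0.0394 to 0.957 over the 16 settings tried). The genes closest to Apoe in pattern were Ugt1a7c, Itih4 and Tceal3, at distances of 0.36, 0.40 and 0.41, each with its lowest values in LRP1 KO libraries 1 and 3. Itih4 was at 0.186 and 0.110 FPKM there, and at 1.58 FPKM in LRP1 KO library 4, beside 0.833 to 2.52 FPKM in WT.

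Pltp (chromosome 2, 164839518 to 164857711, minus strand) encodes phospholipid transfer protein, which remodels high-density lipoprotein. It was at 26, 38, 29.7 and 28.7 FPKM across WT, against 22.7, 30, 29.1 and 27.5 FPKM across LRP1 KO. Only LRP1 KO library 1 was below all WT libraries, and the difference of -0.15 (95% interval -0.42 to 0.12) did not pass (limma adjusted p 0.411). Of the exonic bases of Pltp, 19.32% overlap exons of Ctsa on the opposite strand, a gene at 436 ± 47.1 FPKM in WT that fell by 0.36 (SE 0.09, limma adjusted p 0.0281), and how such reads were shared is not stated. Of the 7 further apolipoprotein and plasma remodelling genes tested, 0 passed by limma, beside 13.6% of all tested genes. In the whole list, 1 gene had an unadjusted p-value under 0.05, beside 33.7% of all tested genes. That gene was Clu, which encodes clusterin, at 435, 424, 271 and 277 FPKM across WT, against 218, 238, 178 and 267 FPKM across LRP1 KO (difference -0.62, limma adjusted p 0.0535). The whole list held 1 call without WT library 3 and 2 without LRP1 KO library 4.

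None of the 3 lysosomal genes among the 10 passed the test. Lipa (chromosome 19, 34492318 to 34527474, minus strand) encodes lysosomal acid lipase, which hydrolyses the esters of internalized particles. Its values were 30.2, 36.8, 39.1 and 34.3 FPKM across WT, against 39.2, 41.4, 41.7 and 39.9 FPKM across LRP1 KO. The groups lay apart by a narrow margin, with LRP1 KO higher, as in 8.84% of all tested genes. The difference of 0.21 (95% interval 0.04 to 0.38) did not pass (limma adjusted p 0.0958; two-sided exact permutation p = 0.0286), and did not in any of 16 alternatives (0.0594 to 0.973). Npc2 (chromosome 12, 84754562 to 84773152, minus strand), which encodes the soluble cholesterol carrier of the lysosome, was at 279, 295, 244 and 251 FPKM across WT, against 251, 254, 262 and 262 FPKM across LRP1 KO. The LRP1 KO values lay within the WT range, with a difference of -0.05 (95% interval -0.20 to 0.10, limma adjusted p 0.627). Npc1 (chromosome 18, minus strand), which encodes the membrane protein that receives cholesterol from NPC2, was at 12.7, 16.9, 16.7 and 14.2 FPKM across WT, against 14.3, 15.3, 14.5 and 15.9 FPKM across LRP1 KO. Here the difference was 0.00 (95% interval -0.21 to 0.21, limma adjusted p 0.989). Of the exonic bases of Npc1, 4.52% overlap Rmc1 on the opposite strand.

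In the wider list of lysosomal cholesterol release, 16 further genes were tested, of which 1 fell and 0 rose, with a median of 0.00. The shares over all tested genes were 7.31% lower and 6.27% higher. The one that fell was Stard4, which encodes a cytosolic sterol carrier, from 23.2 ± 1.93 to 18.6 ± 1.74 FPKM (SD, n = 4), by 0.31 (SE 0.08, limma adjusted p 0.0392). It was the only call of the list, and leaving out any 1 library other than LRP1 KO library 4 left 0 calls, whereas leaving out that library gave 3. Lamp1, an abundant protein of the lysosomal membrane, was at 615 ± 52.3 and 644 ± 51.4 FPKM (SD, n = 4; limma adjusted p 0.587).

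**Figure D2:**
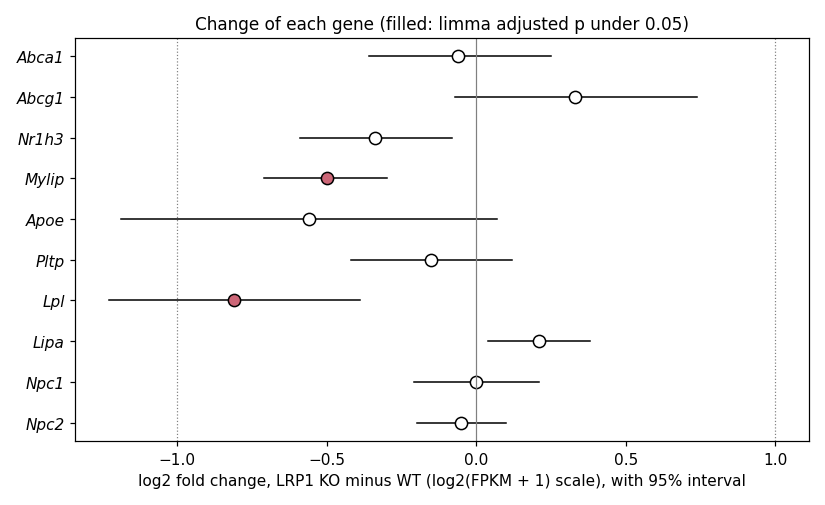
Log2 fold change of each of the 10 genes (LRP1 KO minus WT, horizontal axis, log2(FPKM + 1) scale) with its 95% interval from limma as a line, ordered by role. Filled points (Mylip and Lpl) passed an adjusted p-value of 0.05, and dotted lines mark -1 and 1. Apoe has the widest interval, from -1.19 to 0.07, and Npc2 the narrowest, from -0.20 to 0.10.

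The libraries contributed unevenly. Among the 4 LRP1 KO libraries, library 4 held the highest value in 6 of the 10 genes and library 1 the lowest in 7. Library 4 was also the one nearest to the WT mean in 5 genes. In WT, library 1 held the lowest value in 8 of the 10. Leaving out LRP1 KO library 4 raised the number of the 10 that passed from 2 to 4, with Apoe and Nr1h3 added, as the share of all tested genes that passed rose from 13.6% to 26.2%. Leaving out WT library 2, 3 or 4 or LRP1 KO library 1, 2 or 3 left 1, Mylip, while between 3.83% and 8.74% of all genes passed.

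Markers of other cell types differed between the groups. Over all tested genes, 6.27% passed as higher and 7.31% as lower. Of 20 macrophage markers, 14 were tested and 11 rose, of which Adgre1 and Mrc1 passed the filter on low values only through LRP1 KO. Among the other 12 tested, 9 rose, and the summed level of the list was 108 to 135 FPKM in WT and 279 to 646 FPKM in LRP1 KO. Adgre1 was at 0.126 to 0.475 FPKM in WT and 1.91 to 4.26 FPKM in LRP1 KO. Clec4f, the marker of liver macrophages, was at 0.0152 FPKM or less in every library. The endothelial markers summed to 193 to 206 FPKM in WT and to 679, 433, 502 and 200.3 FPKM in LRP1 KO libraries 1 to 4, with 2 of 18 tested genes called, both higher. Library 4, in which Lpl and Apoe were highest within LRP1 KO, was thus the one at the WT level of endothelial markers. The mural cell markers summed to 670.3 to 836 and to 1039.7 to 1627 FPKM, with 4 of 8 tested genes higher. The fibroblast markers summed to 2631 to 3853 and to 2218 to 3492 FPKM, with 1 of 12 tested genes higher and 2 lower. Within LRP1 KO that sum was lowest in library 1, at 2218 FPKM, and highest in library 4, at 3492 FPKM. The part of these markers in the results for the 10 genes was not tested.

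Adipocytes, cardiomyocytes and hepatocytes are among the known sources of lipoprotein lipase or apolipoprotein E, and other cell types make them too. Among adipocyte markers, Adipoq was at 0.711 FPKM or less and Plin1 at 0.0703 FPKM or less in every library. The list summed to 9.19 to 10.5 FPKM in WT and 7.29 to 8.45 FPKM in LRP1 KO, with Lipe, the only call among 2 tested genes, lower. Among cardiomyocyte markers, Myh6 was at 1.51 FPKM or less, 0 of 2 tested genes passed by limma (1 at an unadjusted p-value under 0.05), and Tnnt2 made up most of the sum of 87.9 to 155 FPKM. The hepatocyte gene Alb was at 0.108 FPKM or less and Hnf4a at 0.00176 FPKM or less, and of the 2 tested genes of that list Ahsg rose, with sums of 13.1 to 14.0 FPKM in WT and 13.5 to 30.3 FPKM in LRP1 KO. Of the lung epithelium markers, Sftpc was at 0.181 FPKM or less and both tested genes, Scgb1a1 and Abca3, fell, with sums of 17.1 to 18.7 and 14.8 to 16.0 FPKM. Neutrophil markers summed to 4.06 FPKM or less with S100a8 called higher as the only tested gene, and lymphocyte markers, of which 0 could be tested, to 1.12 FPKM or less.

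**Figure D3:**
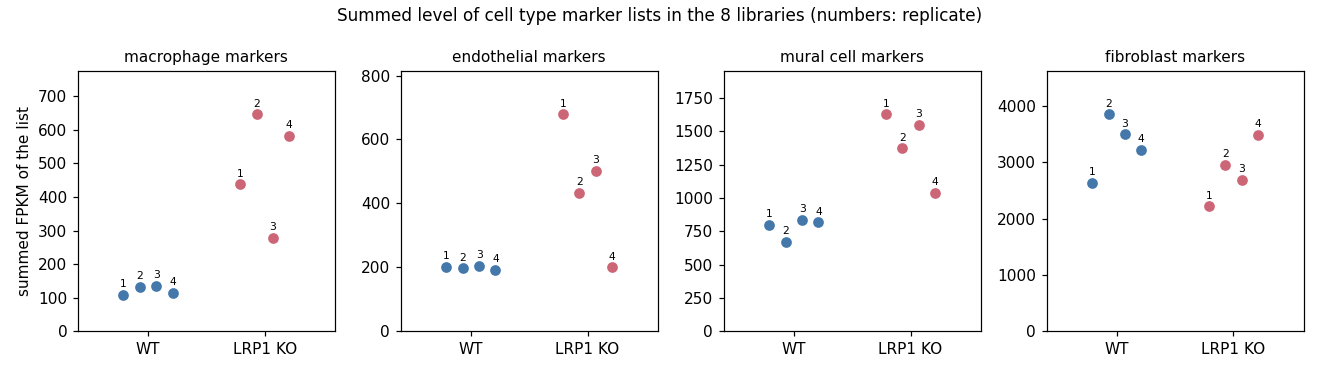
Summed FPKM of 4 marker lists (vertical axes, each starting at 0) in the 4 WT libraries (blue) and the 4 LRP1 KO libraries (red), with the replicate number over each point. Macrophage sums are 108 to 135 in WT and 279 to 646 in LRP1 KO, and the endothelial sum of LRP1 KO library 4, at 200.3, is at the level of WT.

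Genes around the 10 were described by 8 pathway lists, which together held 92 tested genes besides the 10 and Lrp1. The lists were chosen with earlier results of these data known, so their shares are a description and no test. Of these 92, 22 passed, 4 higher and 18 lower, or 23.9% beside 13.6% over all genes, with a median of -0.17. The count depended on single libraries and on the settings of the fit. With the 10 and Lrp1 included it was 25, and it was 7 without WT library 2 or LRP1 KO library 1, 8 without LRP1 KO library 2, 9 without LRP1 KO library 3, 12 without WT library 3 and 40 without LRP1 KO library 4. It was 15 with the replicate number as a block and 11 without the filter on low values. With the macrophage covariate it was 1 and with the endothelial covariate 3.

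Of 12 further tested genes of the liver X receptors, their partners and their targets, 2 fell and 0 rose. By the same test 7.31% of all tested genes fell and 6.27% rose. Lpcat3, which encodes an enzyme that remodels membrane phospholipids, fell from 53.1 ± 2.23 to 39.5 ± 2.62 FPKM (SD, n = 4), by 0.42 (SE 0.06, limma adjusted p 0.00460). Scd2, a stearoyl-CoA desaturase, fell from 206 ± 30.1 to 151 ± 13.4 FPKM (SD, n = 4), by 0.43 (SE 0.11, limma adjusted p 0.0327). Srebf1, a further known target, was at 33.5 ± 1.38 and 32.8 ± 2 FPKM (SD, n = 4; limma adjusted p 0.728), and Scd1 at 59.3 ± 8.69 and 49.3 ± 3.72 FPKM (SD, n = 4; limma adjusted p 0.125). Of 5 further efflux genes tested, 1 fell, beside 7.31% of all tested genes. Abca7, a relative of Abca1, fell by 0.33 (SE 0.08, limma adjusted p 0.0296), while Scarb1, which encodes the receptor for high-density lipoprotein, was at 24.3 ± 1.95 and 20.0 ± 1.71 FPKM (SD, n = 4; limma adjusted p 0.0514). The liver X receptor list, with its members among the 10, held 4 calls, 7 without LRP1 KO library 4, 4 without WT library 1 and 2 without any other single library. The efflux list held 0 calls without WT library 1 or 2 or LRP1 KO library 1, 2 or 3, and 3 without LRP1 KO library 4.

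Receptors moved in both directions. Of 19 further tested genes of uptake, 3 rose, namely Cd36, Msr1 and Olr1, and 3 fell, Lrp1 and Sort1 among them. The shares over all tested genes were 6.27% higher and 7.31% lower. Msr1, a scavenger receptor of macrophages, ranged from 0.114 to 0.487 FPKM across WT, against 2.24 to 4.77 FPKM across LRP1 KO. It passed the filter on low values (at least 1 FPKM in at least 4 libraries) only through LRP1 KO, so that its call was partly set by the filter. Olr1, the receptor for oxidized LDL of endothelial cells and macrophages, rose from 10.2 ± 3.86 to 26.4 ± 5.91 FPKM (SD, n = 4), by 1.32 (SE 0.25, limma adjusted p 0.0138). Sort1, a sorting receptor, fell by 0.32 (SE 0.09, limma adjusted p 0.0442). Vldlr, which encodes a receptor that the MYLIP protein marks for degradation, was at 11.9 ± 2.36 and 12.9 ± 1.78 FPKM (SD, n = 4; difference 0.11, 95% interval -0.20 to 0.43, limma adjusted p 0.612). Scarb2, a receptor of the lysosomal membrane, was at 145 ± 12.6 and 149 ± 5.05 FPKM (SD, n = 4; limma adjusted p 0.652). With Mylip this list held 7 calls, and 4 without LRP1 KO library 1 or 2 or where at least 1 FPKM was asked of every library.

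Sterol sensing by SREBP2 is the branch that raises cholesterol supply when sterols are low. Of 20 tested genes of this system and its targets, 11 fell and 0 rose, beside 7.31% of all tested genes that fell, with a median of -0.51. The list was chosen with earlier results of these data known, so this comparison is a description and no test. Insig1, which retains the SREBP complex in the endoplasmic reticulum, fell from 74.1 ± 14.9 to 41.2 ± 10.3 FPKM (SD, n = 4), by 0.84 (SE 0.19, limma adjusted p 0.0221). Srebf2 itself, which encodes SREBP2, fell from 39.9 ± 2.65 to 29.1 ± 3.17 FPKM (SD, n = 4), by 0.45 (SE 0.08, limma adjusted p 0.0119). Among the others that fell were Hmgcs1, Sqle, Lss, Cyp51, Fdft1, Fdps and Stard4, by 0.31 to 0.77. The count of 11 was 1 without WT library 2, 2 without LRP1 KO library 1, 3 without LRP1 KO library 2 or 3, 4 without WT library 3 and 15 without LRP1 KO library 4. It was 4 with the replicate number as a block, 5 without the filter on low values and 0 with either the macrophage or the endothelial covariate.

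Of 8 further tested genes of sterol esterification and ester hydrolysis, 2 fell and 0 rose, beside 7.31% and 6.27% of all tested genes. Cyp7b1, an oxysterol hydroxylase, was at 4.33, 6.25, 3.78 and 2.67 FPKM across WT, against 0.410, 1.44, 0.538 and 2.62 FPKM across LRP1 KO, a fall of 1.29 (SE 0.31, limma adjusted p 0.0284). Lipe, which encodes hormone-sensitive lipase, fell by 0.54 (SE 0.15, limma adjusted p 0.0481). In the fits that left out any 1 library other than WT library 4 or LRP1 KO library 4, 0 genes of the list passed by limma (6 of the list at an unadjusted p-value under 0.05 with all libraries), and without LRP1 KO library 4 there were 4. Soat1, which encodes the enzyme that esterifies cholesterol for storage, was at 26.4 ± 2.24 and 29.6 ± 2.36 FPKM (SD, n = 4; limma adjusted p 0.184), and Plin2, a coat protein of lipid droplets, at 115 ± 5.56 and 118 ± 10.6 FPKM (SD, n = 4; limma adjusted p 0.770).

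**Figure D4:**
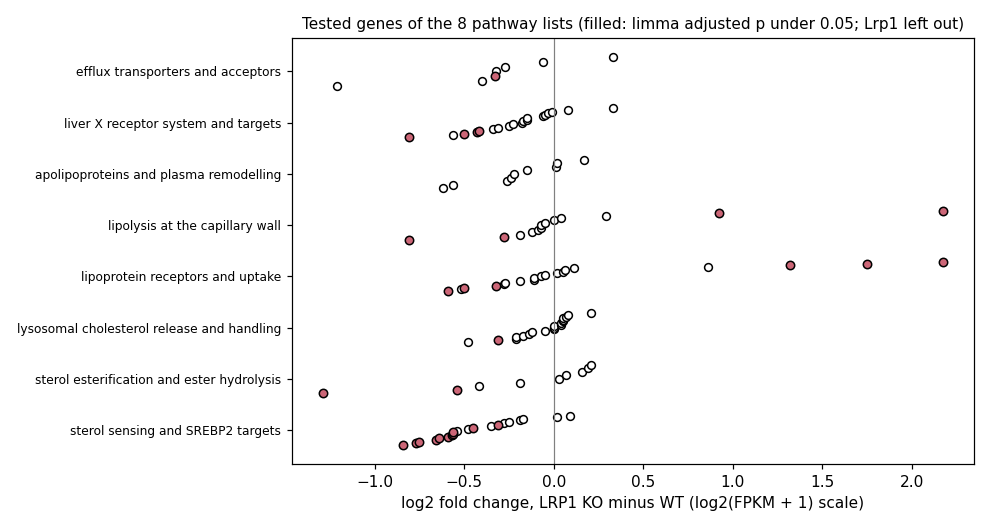
Log2 fold change (LRP1 KO minus WT, horizontal axis, log2(FPKM + 1) scale) of each tested gene of the 8 pathway lists, 1 point a gene, with Lrp1 left out and with the 10 genes of lipoprotein handling included in their lists. Filled points passed a limma adjusted p-value of 0.05. The sterol sensing list holds 11 filled points, all below 0, and the filled points above 1 belong to Cd36, Msr1 and Olr1.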

How the data were processed

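Gene expression had been measured by RNA sequencing in 8 libraries, 4 WT and 4 LRP1 KO, grouped by the sample titles. The deposited values were taken to be FPKM: the submitters' processing notes name TopHat2, Cufflinks and mm10, whereas the study's methods describe STAR, featureCounts and edgeR, which would have given counts. No source used here states a step after Cufflinks. The deposited FPKM, however, look quantile normalized: library sums ran only from 503571 to 504112, all 8 libraries shared the highest value of 7793, and values of equal rank differed by a median of 0.576%. The header does not state the unit, and normalized TPM would look alike. Such scaling removes depth and can spread a broad shift over other genes. No counts could be recovered and no counting error computed.

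Values were analysed as log2(FPKM + 1), which understates the change of low genes. Genes with at least 1 FPKM in at least 4 libraries were kept (11389 of 22520, all 10 members included). With limma 3.58.1 (R 4.3.3) all 8 libraries entered 1 model of genotype alone, with a mean-variance trend, and p-values were adjusted by Benjamini-Hochberg over all tested genes. Single members were also compared by exact permutation over all 70 choices of 4 of 8 libraries. The fit was tested on simulated data. Alternatives were another pseudocount, 2 other filters, rescaled libraries, no trend, a replicate block, macrophage or endothelial covariates, and leaving out each library. Positions were taken from GENCODE M21 (GRCm38) by Ensembl identifier, and promoter windows from RefSeq (GRCm38.p6).

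The 10 genes, the 8 pathway lists and the 10 marker lists were chosen with earlier results of these data known. Named genes were the 10, Lrp1, list genes that passed, the most abundant gene of each pathway list that did not pass (by the mean over all 8 libraries), Gpihbp1, Angptl4, Vldlr, Scarb1, Soat1, Nr1h2 and Srebf1, and the 3 nearest genes in pattern to Lpl and to Apoe. Ctsa, Rmc1 and single marker genes were named after their values were seen. Of 246 list genes, 244 were found. Some genes that this rule names are counted in their lists but not reported here by name.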

Additional observations from a re-analysis of the deposited data

Results flagged for a closer look

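In 2 of the 20 groups of 4 libraries formed by the 10 genes, 1 library stood apart from the other libraries of its group by Dixon's test at the 95% level, which chance gives in about 1 of 20. Lpl was at 173 FPKM in LRP1 KO replicate 4 and at 100 to 106 FPKM in the other LRP1 KO libraries. Apoe was at 718 FPKM in WT replicate 2 and at 458 to 496 FPKM in the other WT libraries.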

How the results depend on the processing

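Of the estimates for the 10 genes under 16 alternatives each, 134 kept their direction and side of the threshold, 11 lost it, 2 gained it and 13 changed sign, the last only for genes that did not pass. When 1 library was left out, the number of the 10 that passed was 1 to 4, that of all genes 433 to 2959 and that of the pathway genes 7 to 40, and the estimates ran from -0.15 to 0.03 for Abca1 and from -0.08 to 0.05 for Npc1. Without a filter on low values, 1 of the 10 and 11 pathway genes passed. With the macrophage covariate, 0 of the 10 by limma (5 at an unadjusted p-value under 0.05, beside 20.1% of all genes), 5 genes in all and 1 pathway gene passed, the median of the 10 was -0.62, and estimates were -2.33 for Apoe (-0.56 without it), -0.76 for Nr1h3 (-0.34 without it), 0.00 for Abca1, -0.88 for Abcg1 and 0.01 for Npc2. With the endothelial covariate, 0 of the 10 (2 unadjusted, beside 10.8% of all genes), 166 genes in all (142 higher and 24 lower) and 3 pathway genes passed, and estimates were 0.07 for Apoe, opposite in direction to the macrophage covariate, and 0.07 for Npc1. Both covariates differed between the groups, and the median SE rose from 0.0880 to 0.244 and 0.116. After rescaling the libraries Npc1 was at 0.01. With the replicate number as a block, 1013 genes in all (1547 without it) and 15 pathway genes (25 without it) passed, with Mylip and Lpl still among them. Of the single lists, without the filter the liver X receptor list held 2 calls (4 with it) and the efflux, lysosomal and esterification lists 0 (1, 1 and 2 with it). Esterification held 1 call with at least 1 FPKM in every library or with rescaled libraries and 0 with the block, where efflux held 2. With the macrophage covariate 1 uptake gene was the only call in the 8 lists, and with the endothelial covariate 3 uptake genes and 1 lipolysis gene were called and 0 in the other lists. Deviations of libraries with the same number correlated at 0.16, 0.14, 0.34 and -0.31, and 5 of the 8 libraries correlated best with their own number. These values do not settle whether the numbers mark pairs. The main fit did not take them as pairs. Except where stated, the cause of these moves was not tested. Depth is unknown, so the limits rest on the spread of 4 libraries a group.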
